A study of Mus musculus with 6 samples.

Results

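The genes described here are 43 mouse genes known to respond to interferons, taken by name with no threshold on their values. They were chosen with earlier results of these data known. All 43 had a row among the 22095 gene rows of the table. They fall into a group of 28 genes built around ISG15, the IFIT and OAS families and the factor ISGF3, and a group of 15 genes built around the guanylate-binding proteins (GBP), the immunity-related GTPases (IRG) and IRF1. RNA was sequenced from wild-type CD8+ T cells of C57BL/6 mice, an inbred laboratory strain. Naive cells had been purified from spleens and activated for 48 h with antibodies to CD3 and CD28 in medium that contained mouse IL-2. All libraries share that activation and the IL-2. There were 3 libraries from cells activated with the solvent DMSO and 3 from cells activated with 10 nM ponatinib, a kinase inhibitor developed against BCR-ABL. The labels do not say whether replicates were separate mice or cultures, so the spread behind each p-value is that between these 3 samples a group and may be technical.

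Type I interferons bind the receptor IFNAR, whose kinases JAK1 and TYK2 set off the assembly of ISGF3, a complex that holds STAT2 and IRF9 and binds interferon-stimulated response elements (ISRE) in DNA. Type II interferon, interferon gamma, binds IFNGR, whose kinases JAK1 and JAK2 act through gamma-activated sites (GAS) in DNA. Activated CD8 T cells make interferon gamma and carry both receptors. Many genes answer to both interferons, so neither group belongs to a single type.

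Levels are in TPM, a unit of transcript abundance scaled for transcript length and library total. A gene was tested where its mean over the 6 libraries was at least 1 TPM, which held for 10039 genes and for 41 of the 43 members. Folds are ratios of mean TPM, log2 fold changes and their standard errors (SE) are on the log2(TPM + 1) scale, and every adjusted p is limma's with Benjamini-Hochberg adjustment over all genes tested. A gene was called higher or lower where that value was under 0.05. Of all genes tested, 23.9% were called higher and 9.54% lower (33.4% in either direction), and the median log2 fold change was 0.09.

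In the ISG15, IFIT, OAS and ISGF3 group 14 of 26 tested members fell and 0 rose, with a median log2 fold change of -0.93, or -0.54 without DMSO replicate 3; at an unadjusted p under 0.05 as well, 0 were higher. In either direction 24 of the 41 tested members were called. In the GBP, IRG and IRF1 group 9 of 15 rose and 1 fell, with a median of 0.31, or 0.36 without DMSO replicate 3. The 14 genes that fell were the same 14 when DMSO replicate 3 was left out, but 6 other members of their group were then called higher, where 35.3% of all genes were called higher and 10.1% lower (45.4% in either direction). Without ponatinib replicate 2 or 3, 8 members of the first group fell, and the 1 member of the second that fell was lost without any library but DMSO replicate 3. The number that rose in the second group was 5 (33.3%) without DMSO replicate 1, DMSO replicate 2 or ponatinib replicate 3. In those fits 13.4% to 17.6% of all genes rose. It was also 5 with medians of ratios or quantile normalization as the scaling, where 14.7% and 17.1% of all genes rose. Of all calls 71.5% were higher, against 48.5% with medians of ratios, a scaling that moved the median of all genes to 0.00, and 54.3% with quantile normalization.

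**Figure D1:**
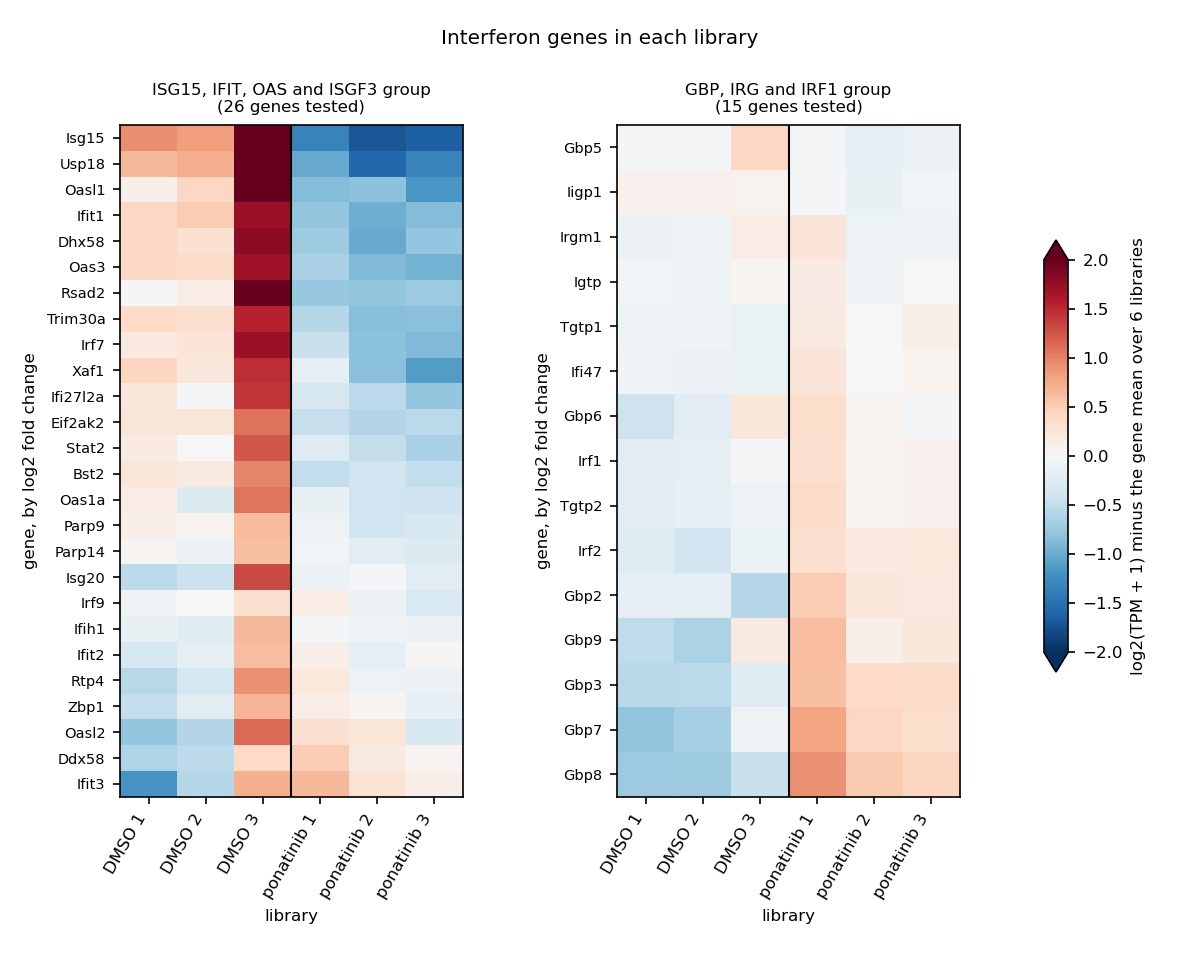
Each row is a tested interferon gene, each column a library, and the colour is log2(TPM + 1) minus the gene's mean over the 6 libraries. In the left panel DMSO replicate 3 is the highest library for 25 of 26 genes; in the right panel the ponatinib libraries hold the higher values for most genes from Irf1 down.

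DMSO replicate 3 stood apart in these genes and is described before the single results. It was the highest of the DMSO libraries for all 26 tested members of the first group, and the highest of all 6 libraries for 25 of them, Ddx58 being the exception; across all genes tested those shares were 64.2% and 32.3%. In 19 of the 26 it was at least 2 times the mean of DMSO replicates 1 and 2, against 1.96% of all genes, and the median ratio was 2.53 against 1.09 for all genes. In the second group the median ratio was 1.13, and 0 of 15 members reached 2 times. The ratio ran from 1.29 for Irf9 to 7.82 for Oasl2 in the first group, and from 0.761 for Gbp2 to 1.74 for Gbp9 in the second. DMSO replicates 1 and 2 lay close to each other, with median levels of 3.76 and 3.76 on the log2(TPM + 1) scale in the first group, against 4.89 in DMSO replicate 3 and 3.52, 3.29 and 3.34 with ponatinib.

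The share of TPM in 13 mitochondrially encoded genes was 4.78% for DMSO replicate 3, against 9.76% and 10.7% for its companions and 7.16% to 8.19% with ponatinib. The 6 markers of CD8 T cells summed to between 1714 and 2029 TPM in every library, but Cd8a, Cd8b1 and Cd3e were called higher with ponatinib (0.54, 0.48 and 0.35) and Cd2 lower (-0.78), with DMSO replicate 3 the highest for Cd2 at 515 TPM. Of the B cell markers, Ighm made up most of the sum, which was 138 to 166 TPM with DMSO and 152 to 174 TPM with ponatinib. Ighm was not called, but Cd79a and Cd79b were called higher (means of 2.58 against 0.852 and 13.4 against 8.11 TPM). The 8 myeloid markers summed to 3.47 to 6.56 TPM with DMSO, the highest being DMSO replicate 3, and to 5.03 to 6.79 TPM with ponatinib. Single myeloid markers moved in opposite directions within that sum. Cd68 was called higher (means of 2.51 against 1.63 TPM) and Mpeg1 lower (1.05 against 2.62 TPM). Lyz2 was under the minimum, at 1.83 against 0.136 TPM without overlap. Siglech, which marks plasmacytoid dendritic cells, was listed at 0 in all libraries, and all 6 dendritic cell markers together reached at most 1.94 TPM. The 3 CD4 T cell markers summed to 12.4 to 16.0 TPM with ponatinib against 4.03 to 8.25 TPM; Cd4 and Foxp3 were called higher (means of 4.70 against 1.58 and 8.14 against 1.12 TPM) and Zbtb7b lower (1.03 against 2.86 TPM). Sums were also higher with ponatinib for 4 NK cell markers, at 0.492 to 0.894 against 0.0191 to 0.156 TPM, and for 7 erythroid and platelet markers, at 4.18 to 8.37 against 0.798 to 1.89 TPM. The part of these shares in the interferon results was not tested. In bulk RNA, fewer cells that express a gene and less RNA per cell cannot be told apart.

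Of the ubiquitin-like modifier system, both members fell, with the lowest log2 fold changes of the 41 tested members. Isg15 encodes a small protein that is attached to other proteins and is also secreted. It stood at 86.8, 80.9 and 349 TPM with DMSO and at 17.3, 13.0 and 13.8 TPM with ponatinib. All ponatinib libraries lay below all DMSO libraries, and the mean was 11.7-fold lower (172 ± 153 against 14.7 ± 2.25 TPM, SD, n = 3 per group; log2 fold change -3.12, SE 0.50, adjusted p = 0.00320). Against DMSO replicates 1 and 2 alone the ponatinib mean was 5.70-fold lower (log2 fold change -2.44, adjusted p = 1.10e-05). Usp18 encodes the protease that removes ISG15 and also restrains signalling from IFNAR. It stood at 15.7, 16.6 and 60.6 TPM with DMSO and at 4.26, 2.58 and 3.24 TPM with ponatinib, with no overlap (log2 fold change -2.61, SE 0.46, adjusted p = 0.00487). Its mean was 9.22-fold lower, or 4.81-fold lower than DMSO replicates 1 and 2. Isg15 (ENSMUSG00000035692) is annotated in GRCm38 on chromosome 4 from 156199424 to 156200818, minus strand, and Usp18 (ENSMUSG00000030107) on chromosome 6 from 121245906 to 121270917, plus strand. Of the 31-base words in Isg15 transcripts, 12.8% also occur in transcripts of other annotated genes.

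The IFIT genes, which encode proteins that bind foreign RNA, lie within 99.3 kb of chromosome 19; Ifit1 was called, Ifit2 and Ifit3 were not, and differences between them were not tested. Ifit1 fell, from 8.37, 8.97 and 22.0 TPM in DMSO libraries to 3.08, 2.55 and 2.85 TPM in ponatinib libraries (log2 fold change -1.76, SE 0.31, adjusted p = 0.00499). Its groups did not overlap. Ifit2 was not called, at 7.23, 8.17 and 15.1 TPM against 10.5, 8.17 and 9.73 TPM (log2 fold change -0.03, 95% interval -0.58 to 0.51, and 0.26 without DMSO replicate 3). Ifit3 stood at 2.85, 4.91 and 13.3 TPM with DMSO and at 12.7, 9.52 and 8.51 TPM with ponatinib, so that only DMSO replicate 3 overlapped with the ponatinib libraries. Its log2 fold change was 0.69 (adjusted p = 0.237) with all libraries and 1.22 (adjusted p = 0.00250) without DMSO replicate 3. Ifit3 shares 61.8% of its 31-base words with its near copy Ifit3b, so reads may have been split between them; Ifit3b had a like pattern at a lower level, 0.552, 0.915 and 3.23 TPM with DMSO against 2.11, 1.32 and 1.40 TPM.

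The OAS genes encode sensors of double-stranded RNA that make 2',5'-oligoadenylates, and OAS-like genes encode relatives of them. Oas3 fell, from 21.3, 20.7 and 53.6 TPM to 9.73, 8.15 and 7.74 TPM, with no overlap (log2 fold change -1.65, SE 0.32, adjusted p = 0.00753; -1.21 without DMSO replicate 3). Oasl1, which restrains translation of Irf7 mRNA, fell from 2.43, 3.22 and 15.1 TPM to 0.742, 0.794 and 0.410 TPM (log2 fold change -1.91, adjusted p = 0.0243). The groups did not overlap, but Oasl1 was no longer called without ponatinib replicate 1, 2 or 3 (0.0702, 0.0610 and 0.0862 as adjusted p), with no filter (0.0636) and with robust empirical Bayes (0.0503); without DMSO replicate 3 its log2 fold change was -1.22 (adjusted p = 9.00e-04). Its neighbour Oasl2 was not called (0.15, adjusted p = 0.831), at 0.483, 0.685 and 4.57 TPM against 2.13, 2.01 and 1.03 TPM. Of the Oasl2 total 52.9% lay in separate transcript rows, and its direction turned with them: the log2 fold change was -0.40 with those rows added. It was also negative without DMSO replicates 1 and 2 (-0.20 and -0.10), and 0.76 without DMSO replicate 3 (adjusted p = 0.0177). Oas1a was not called, at 3.95 ± 2.46 against 1.96 ± 0.326 TPM (log2 fold change -0.64, adjusted p = 0.143; 0.0370 without DMSO replicate 2), and it shares 68.7% of its words with Oas1g. Oas2, at 0.217 ± 0.172 against 0.112 ± 0.0386 TPM, was under the minimum.

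Of ISGF3 and the interferon-linked factor Irf7, Stat2 and Irf7 were called and Irf9 was not; the difference between them was not tested. Stat2, encoding a subunit of ISGF3, had groups that did not overlap. It fell from 11, 9.64 and 24.4 TPM to 7.93, 6.69 and 5.80 TPM (log2 fold change -0.93, SE 0.30, adjusted p = 0.0455). This call was lost when DMSO replicate 1 or ponatinib replicate 1, 2 or 3 was left out (0.0559, 0.0845, 0.110 and 0.143), with no filter (0.104), with transcript rows added (0.0502), with robust empirical Bayes (0.0786) and with the replicate number as a block (0.0502). Leaving out DMSO replicate 3 gave Stat2 a log2 fold change of -0.54, with a smaller spread and an adjusted p of 0.00882. Irf9, the DNA-binding subunit, was not called, at 20.2, 21.3 and 26.9 TPM against 23.6, 19.6 and 17.1 TPM (log2 fold change -0.18, 95% interval -0.49 to 0.14). Irf7, a factor that drives type I interferon genes and is itself interferon-induced, fell from 13.0, 13.5 and 38.7 TPM to 7.96, 5.87 and 5.61 TPM (log2 fold change -1.43, adjusted p = 0.0214). Its groups did not overlap; the call was lost without ponatinib replicates 2 and 3 (0.0669 and 0.0787) and with no filter (0.0582), and without DMSO replicate 3 the log2 fold change was -0.94 (adjusted p = 0.00115).

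The 3 RIG-I-like receptors, cytosolic sensors of viral RNA, differed in their calls, and differences between them were not tested. Dhx58, encoding the regulatory member LGP2, fell from 9.06, 8.36 and 25.2 TPM to 3.62, 2.78 and 3.42 TPM, with no overlap (log2 fold change -1.67, SE 0.36, adjusted p = 0.0102; -1.19 without DMSO replicate 3). Ddx58, encoding RIG-I, stood at 7.02, 7.51 and 15.1 TPM with DMSO and at 16.3, 12.8 and 11.7 TPM with ponatinib. DMSO replicate 3 lay inside the ponatinib range, and the log2 fold change was 0.49 (adjusted p = 0.180), or 0.81 (adjusted p = 0.00196) without it. Ifih1, encoding MDA5, was not called (-0.17, 95% interval -0.67 to 0.32), at 7.48, 6.99 and 13.7 TPM against 8.12, 7.82 and 7.65 TPM, with 0.11 as the log2 fold change once DMSO replicate 3 was left out.

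Of the remaining members of the first group, Trim30a, Eif2ak2, Bst2, Ifi27l2a, Xaf1 and Parp9 fell, Parp14, Rsad2, Zbp1, Rtp4 and Isg20 were not called, and Mx1 was not tested. Trim30a, a ubiquitin ligase gene, fell from 45.1, 43.1 and 101 TPM to 22.8, 18.5 and 18.6 TPM (-1.5, SE 0.29, adjusted p = 0.00728). Eif2ak2 encodes PKR, the kinase that stops translation on sensing double-stranded RNA, and fell from 17.7, 17.7 and 32.6 TPM to 10.5, 9.49 and 9.82 TPM (-1.06, adjusted p = 0.00818). Bst2, encoding tetherin, which holds budding virus at the cell surface, fell from 219, 209 and 365 TPM to 131, 140.3 and 132 TPM (-0.92, adjusted p = 0.00874). In all 3 the groups did not overlap, and without DMSO replicate 3 the log2 fold changes were -1.11, -0.77 and -0.67. Ifi27l2a, encoding a small interferon-induced protein, had the highest level of the first group, 470.5, 395 and 1089 TPM with DMSO against 322, 279 and 236 TPM (-1.08, adjusted p = 0.0406). Its groups did not overlap, but the call was lost without DMSO replicate 1 (0.0534), without ponatinib replicates 1, 2 and 3 (0.0795, 0.0970 and 0.133), with no filter (0.0967) and with robust empirical Bayes (0.108); without DMSO replicate 3 the log2 fold change was -0.64 (adjusted p = 0.00487).

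Xaf1, a gene linked to apoptosis, fell from 14.2, 12.2 and 30.5 TPM to 8.92, 5.35 and 4.21 TPM (-1.42, adjusted p = 0.0168), a call lost without ponatinib replicates 2 and 3 (0.0567 and 0.0681). Leaving out DMSO replicate 3 gave -1.04. Parp9, an ADP-ribosyltransferase gene, fell from 43.6, 41.4 and 62.3 TPM to 37.0, 30.5 and 31.7 TPM (-0.54, adjusted p = 0.0280), a call lost without ponatinib replicates 2 and 3 (0.0932 and 0.0941) and with no filter (0.0664). The log2 fold change of Parp9 was -0.36 without DMSO replicate 3. In neither gene did the groups overlap. Its relative Parp14 was not called (-0.36, adjusted p = 0.142; 0.0496 without DMSO replicate 2), at 30.3 ± 8.61 against 22.9 ± 1.99 TPM. Rsad2 encodes viperin, an antiviral enzyme. It stood at 0.963, 1.23 and 8.09 TPM with DMSO and at 0.189, 0.164 and 0.225 TPM with ponatinib, without overlap and with a 17.8-fold lower mean, or 5.67-fold lower than DMSO replicates 1 and 2. It was not called (-1.52, adjusted p = 0.0552), but was with quantile normalization (0.0461), a pseudocount of 0.1 (0.0161), the replicate number as a block (0.0345), and without DMSO replicate 1 or 2 (0.0375 and 0.0474). Rsad2 passed the minimum through DMSO replicate 3, so these values rest on that library. Without it Rsad2 was not tested, which left 25 tested members in the first group. Mx1, an antiviral GTPase gene that carries a deletion in most laboratory strains, was under the minimum. Of its total 77.1% lay in transcript rows, and with these added it stood at 1.85, 1.65 and 10.7 TPM against 0.407, 0.269 and 0.404 TPM (log2 fold change -1.71, adjusted p = 0.0383). All its ponatinib libraries were still under the minimum. Mx1 thus entered that fit only through the DMSO libraries, chiefly DMSO replicate 3, and its adjusted p is no separate support for a fall.

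Zbp1, Rtp4 and Isg20 were not called, and their difference from the members that fell was not tested. Their 95% intervals were -0.60 to 0.62, -0.79 to 0.79 and -1.26 to 0.75 in that order. Zbp1, a sensor of left-handed nucleic acids that can start necroptosis, stood at 60.6, 72.7 and 137 TPM with DMSO and 94.7, 86.4 and 76.0 TPM with ponatinib (log2 fold change 0.01, adjusted p = 0.975). Rtp4, a receptor transporter gene, stood at 9.16, 10.7 and 27.1 TPM against 16.4, 13.0 and 12.8 TPM (0.0017, adjusted p = 0.998), and Isg20, an exonuclease gene, at 12.1, 12.9 and 46.1 TPM against 16.3, 17.2 and 15.2 TPM (-0.25, adjusted p = 0.691). In each, the ponatinib libraries lay above DMSO replicates 1 and 2 and below DMSO replicate 3. Leaving out DMSO replicate 3 gave log2 fold changes of 0.36, 0.46 and 0.35 (adjusted p of 0.0245, 0.0159 and 0.00724). With Ifit3, Oasl2 and Ddx58 they are the 6 members called higher without that library. Scaled by medians of ratios with that library left out, a setting chosen after seeing the data, 3 were called higher, namely Ifit3, Oasl2 and Ddx58.

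In the second group the guanylate-binding proteins, large GTPases that attack the vacuoles of intracellular pathogens, held the largest increases. Gbp8 rose from 4.03, 4.04 and 5.11 TPM to 14.6, 10.9 and 10.2 TPM, a 2.72-fold higher mean (log2 fold change 1.25, SE 0.14, adjusted p = 9.65e-04). Gbp7 rose from 22.4, 24.5 and 36.8 TPM to 68.8, 53.1 and 50.6 TPM (1.04, SE 0.19, adjusted p = 0.00540). Gbp3 rose from 14.5, 14.6 and 18.0 TPM to 33.3, 28.8 and 28.3 TPM (0.91, SE 0.10, adjusted p = 9.36e-04). In all 3 the groups did not overlap, and without DMSO replicate 3 the log2 fold changes were 1.35, 1.25 and 1.0. Gbp2 had the highest level of the family and rose from 366, 363 and 277 TPM to 584, 482 and 470.4 TPM (0.61, SE 0.12, adjusted p = 0.00803). Among the DMSO libraries it was lowest in replicate 3.

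Gbp9, Gbp6 and Gbp5 were not called. Gbp9 stood at 13.0, 11.9 and 21.7 TPM against 29.7, 20.9 and 22.3 TPM, overlapping through DMSO replicate 3 alone (0.65, adjusted p = 0.0536; 0.90 and 0.00155 without that library), and it was called with the replicate number as a block (0.0471) and where the minimum was 10 TPM (0.0460). Gbp6 stood at 41.6, 47.9 and 65.3 TPM against 71.6, 57.9 and 54.7 TPM (0.26, adjusted p = 0.256; 0.44 and 0.0156 without DMSO replicate 3). Gbp5, at 79.3, 79.2 and 109 TPM against 80.1, 70.8 and 75.4 TPM, had a log2 fold change of -0.22 (adjusted p = 0.195), or -0.32 (0.0449) with medians of ratios. Gbp2, Gbp3, Gbp5 and Gbp7 lie together on chromosome 3, from 142493978 to 142638008 of GRCm38, so that in this block of 4 neighbours 3 rose and Gbp5 was not called; Gbp6, Gbp8 and Gbp9 lie on chromosome 5, from 105014150 to 105293698. Near copies bear on these values: 74.2% of the 31-base words of Gbp6, 31.1% of Gbp8, 18.3% of Gbp9 and 14.7% of Gbp7 occur in transcripts of other genes. The annotated span of Gbp9 also lies inside that of Gbp8 on the same strand, so their reads may be hard to divide.

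The transcription factors of the second group rose by smaller amounts. Irf2, known as an antagonist of IRF1 at shared sites, rose from 26.6, 24.0 and 28.5 TPM to 40.2, 36.3 and 36.5 TPM without overlap (0.50, SE 0.08, adjusted p = 0.00313). The log2 fold change of Irf2 was 0.33 (adjusted p = 0.00844) with its transcript rows, which hold 30.5% of its total. Irf1, an interferon-induced factor and a driver of GBP genes, rose from 84.7, 85.8 and 95.4 TPM to 123, 102 and 105 TPM, also without overlap (0.31, SE 0.08, adjusted p = 0.0235). The Irf1 call was lost with medians of ratios (0.21, adjusted p = 0.0764), with quantile normalization (0.0561), and when DMSO replicate 1 or 2 (0.0791 and 0.0652) or ponatinib replicate 1 or 3 (0.0570 and 0.0519) was left out.

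The IRG genes encode small GTPases that act on pathogen vacuoles; of the 6 in the group, 3 rose, 1 fell and 2 were not called. Igtp stood at 325, 318 and 349 TPM against 381, 323 and 338 TPM (0.07, 95% interval -0.09 to 0.23) and Irgm1 at 95.9, 99.2 and 116 TPM against 125, 97.5 and 97.1 TPM (0.03, -0.23 to 0.29); neither was called, and the sign of both turned with medians of ratios (-0.03 and -0.06). Ifi47 rose from 223, 217 and 215 TPM to 280.2, 236 and 247 TPM (0.22, adjusted p = 0.0380). Tgtp1 and Tgtp2 rose from 74.1 ± 1.69 to 85.1 ± 5.88 TPM and from 62.8 ± 2.48 to 79.2 ± 10.0 TPM (0.20 and 0.33, adjusted p of 0.0423 and 0.0250). The groups of Ifi47, Tgtp1 and Tgtp2 did not overlap. These 3 calls were lost with medians of ratios (0.12, 0.10 and 0.23, adjusted p of 0.287, 0.338 and 0.0965), as with no filter (0.0659, 0.0569 and 0.0511) and with quantile normalization (0.122, 0.230 and 0.0704). The Ifi47 call was also lost without DMSO replicates 1 and 2 and ponatinib replicates 1 and 3 (0.0801, 0.0861, 0.0727 and 0.0811). The Tgtp2 call was lost without DMSO replicates 1 and 2 and ponatinib replicate 3 (0.0815, 0.0568 and 0.0502). The Tgtp1 call was lost with any library but ponatinib replicate 2 left out (adjusted p of 0.108, 0.0710, 0.0511, 0.121 and 0.128 in the order DMSO 1 to 3, ponatinib 1 and 3) and with the block (0.0572). Tgtp1 and Tgtp2 are near copies, with 84.4% and 90.5% of their words in other genes, and their values cannot be told apart with certainty. With their TPM added together the sum was called higher (log2 fold change 0.26, adjusted p = 0.0230), and 8 of the 14 genes then in the group rose.

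Iigp1, encoding the IRG protein Irga6, was the member of this group that fell, by a small amount: 61.1, 61.3 and 60.9 TPM against 56.3, 51.8 and 55.2 TPM (-0.16, SE 0.05, adjusted p = 0.0450). Its groups did not overlap and its DMSO libraries, DMSO replicate 3 included, lay close together. The call held without DMSO replicate 3 (0.0371) and was lost without each of the others (adjusted p from 0.0568 without ponatinib replicate 1 to 0.177 without ponatinib replicate 2; 0.123 and 0.103 without DMSO replicates 1 and 2, 0.101 without ponatinib replicate 3), with transcript rows added (0.0539) and with the block (0.0662).

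**Figure D2:**
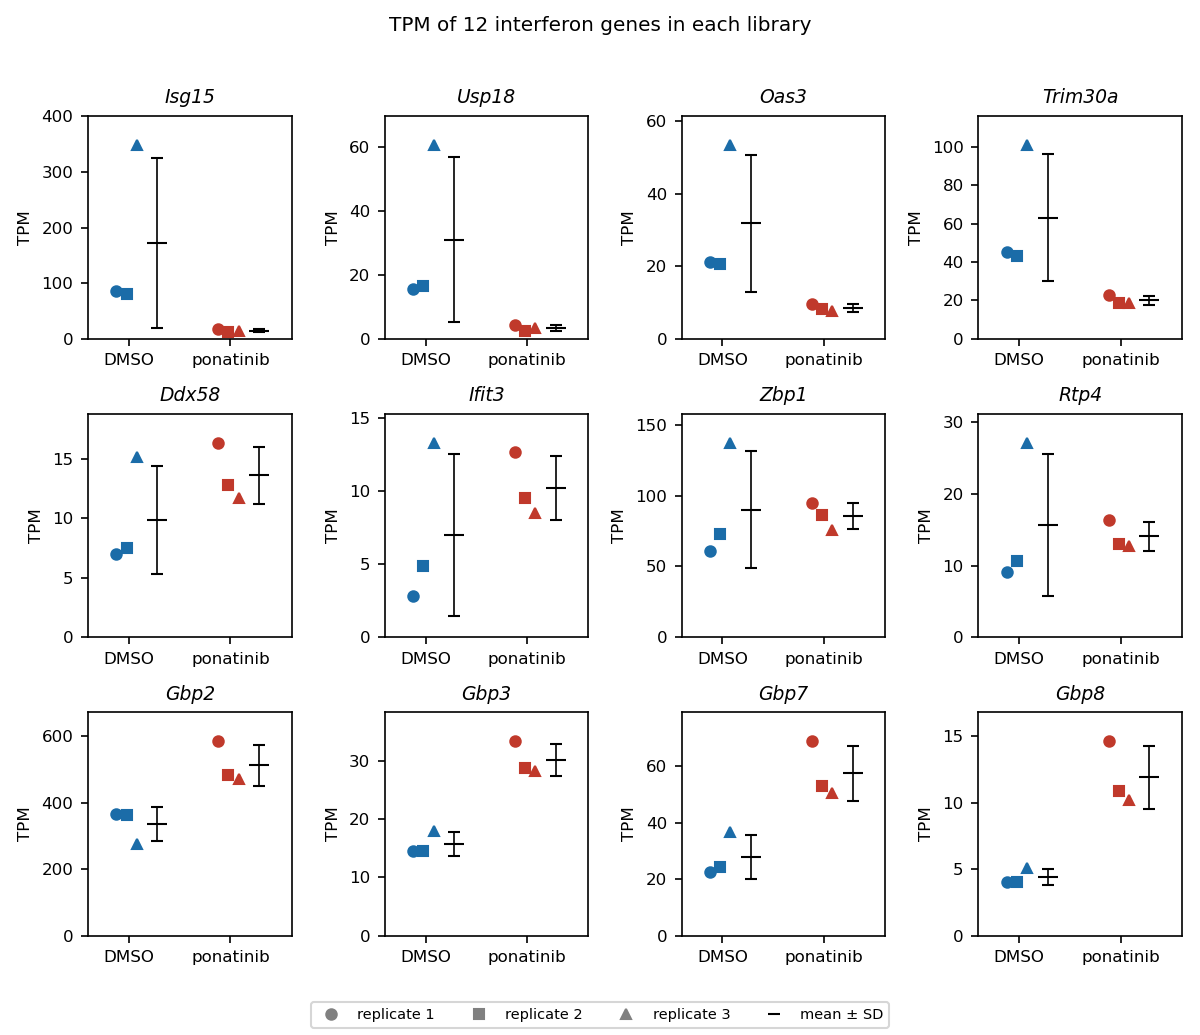
TPM of 12 interferon genes (y axis, linear and from 0) in DMSO (blue) and ponatinib (red) libraries, with marker shapes for replicate numbers and bars for mean ± SD, n = 3. In the top row all ponatinib points lie below all DMSO points, in the middle row they lie above DMSO replicates 1 and 2 but not above replicate 3 (Ddx58 in ponatinib replicate 1 excepted), and in the bottom row they lie above all DMSO points.

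Of 24 called members, 13 kept their call under all alternatives in which they were tested: Isg15, Usp18, Ifit1, Oas3, Dhx58, Eif2ak2, Bst2 and Trim30a, which fell, and Irf2, Gbp2, Gbp3, Gbp7 and Gbp8, which rose. Among the genes with groups that did not overlap, 15 of 26 in the first group lay below DMSO with ponatinib and 0 above, against 14.9% below and 34.5% above of all genes tested. In the second group 9 of 15 lay above and 1 below. Without DMSO replicate 3 the counts were 8 above and 15 below in the first group and 11 and 1 in the second, where 50.1% of all genes lay above and 16.4% below.

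The DNA just before the genes was compared because members moved in opposite directions. RefSeq windows on GRCm38.p6, from 250 bases before to 50 after a gene's start, matched 30 of the 43 members. The ISRE core was searched as GAAANNGAAA on both strands and the GAS as TTCNNNGAA, which reads the same on both strands; the 2 patterns may overlap each other. An ISRE core occurred in the windows of 12 of 19 genes of the first group and 9 of 11 of the second, against 3.99% of the 27025 genes with a window (3.44% of all 32851 windows). A GAS pattern occurred in 5 of 19 and 7 of 11, against 9.55% of genes (8.3% of windows). Of the first group's genes that fell, 7 of 10 held an ISRE core and 2 of 10 a GAS. Among its genes not called lower these counts were 5 of 9 and 3 of 9. Of the second group's genes that rose, 6 of 8 held an ISRE core and 5 of 8 a GAS. Among its genes not called higher they were 3 of 3 and 2 of 3. A match is a string of letters and not a shown binding site.

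The stretches below, 5' to 3' on the gene's strand and ending before the start, are shown for genes that fell, for Ifit3, which did not, and for genes that rose; capitals mark ISRE core and GAS matches. Of those that fell:
Isg15, chr4:156200863-156200908, minus strand: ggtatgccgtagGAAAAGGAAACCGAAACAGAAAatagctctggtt
Ifit1, chr19:34640773-34640825, plus strand: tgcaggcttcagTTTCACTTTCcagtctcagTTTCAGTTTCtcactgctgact
Oas3, chr5:120777713-120777746, minus strand: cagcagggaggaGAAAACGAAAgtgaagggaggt
Trim30a, chr7:104465208-104465241, minus strand: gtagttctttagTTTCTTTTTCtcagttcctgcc
Bst2, chr8:71537575-71537620, minus strand: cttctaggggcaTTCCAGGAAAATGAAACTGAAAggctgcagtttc
Not called with 6 libraries and higher without DMSO replicate 3:
Ifit3, chr19:34583361-34583428, plus strand: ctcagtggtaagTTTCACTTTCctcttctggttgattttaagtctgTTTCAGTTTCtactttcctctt
Of those that rose:
Gbp2, chr3:142620592-142620625, plus strand: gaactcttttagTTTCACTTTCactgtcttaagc
Gbp3, chr3:142559987-142560026, plus strand: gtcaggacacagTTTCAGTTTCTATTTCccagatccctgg
Gbp7, chr3:142530218-142530304, plus strand: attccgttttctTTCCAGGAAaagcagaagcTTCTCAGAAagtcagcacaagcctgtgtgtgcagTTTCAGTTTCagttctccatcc
Irf1, chr11:53769912-53769944, plus strand: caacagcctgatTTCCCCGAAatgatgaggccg
Irf2, chr8:46739495-46739541, plus strand: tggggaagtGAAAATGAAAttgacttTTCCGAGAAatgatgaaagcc

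Isg15 holds 3 overlapping ISRE cores that begin 78, 72 and 66 bases before the start and no GAS. Ifit1, which fell, and Ifit3, which did not, hold the same pair of matches, TTTCACTTTC and TTTCAGTTTC, beginning 104 and 85 bases before the start in Ifit1 and 156 and 122 in Ifit3. The match TTTCAGTTTC also stands before Gbp7 and Gbp3, which rose, and before Stat2, which fell. Irf1 holds a GAS 90 bases before its start and no ISRE core. Matches to both patterns thus stood before genes that fell and before genes that rose.

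Among the ligands, interferon gamma rose and type I interferon transcripts were at or near 0. Ifng stood at 216, 229.6 and 665 TPM with DMSO and at 671, 768 and 789 TPM with ponatinib; the groups did not overlap, and DMSO replicate 3 lay just under the lowest ponatinib library (log2 fold change 1.20, SE 0.38, adjusted p = 0.0427; 1.73 and 1.10e-05 without DMSO replicate 3). The call was lost without any 1 of the other libraries (adjusted p of 0.124, 0.114, 0.0958, 0.107 and 0.124 in the order DMSO 1 and 2, ponatinib 1 to 3), with no filter (0.101), with robust empirical Bayes (0.112) and with quantile normalization (0.0602). DMSO replicate 3 was thus near the ponatinib libraries for Ifng but on the far side of the other DMSO libraries for Isg15, Usp18 and Oas3. Ifnb1 and Ifna11 were listed at 0 in all libraries. Ifna1, Ifna2 and Ifna5 were listed above 0 in DMSO replicate 3 alone, at 0.114, 0.430 and 0.114 TPM, and Ifna4 at 0.140 TPM in DMSO replicate 1 and 0.350 TPM in DMSO replicate 3. Ifnl2 and Ifnl3, type III interferons, were listed in DMSO replicate 2 alone, at 0.0989 and 0.132 TPM. These levels are far under the minimum of 1 TPM, and no difference was tested.

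The receptor genes were not called, whereas the kinase genes Jak1 and Jak2 rose. Jak1, the kinase shared by both receptors, rose from 79.7, 79.8 and 81.9 TPM to 132, 116 and 119 TPM (0.59, SE 0.06, adjusted p = 6.18e-04). Jak2 rose from 33.5, 31 and 39.7 TPM to 48.1, 45.4 and 45.9 TPM (0.42, SE 0.09, adjusted p = 0.0110), and Tyk2, the partner kinase at IFNAR, was not called, at 15.9 ± 1.44 against 15.7 ± 0.437 TPM (-0.02, 95% interval -0.20 to 0.17). The groups of Jak1 and Jak2 did not overlap, and their calls held under all alternatives run. Ifnar1 stood at 24.7 ± 6.36 against 23.6 ± 1.5 TPM and Ifnar2 at 31.6 ± 6.44 against 33.7 ± 0.959 TPM, with log2 fold changes of -0.04 and 0.11; without DMSO replicate 3 these were 0.15 and 0.26, and Ifnar2 was then called (adjusted p = 0.00925). Ifngr1 stood at 43.1 ± 13.2 against 36.8 ± 3.39 TPM (-0.19, and 0.04 without DMSO replicate 3) and Ifngr2 at 2.70 ± 0.815 against 2.81 ± 0.159 TPM (0.06).

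**Figure D3:**
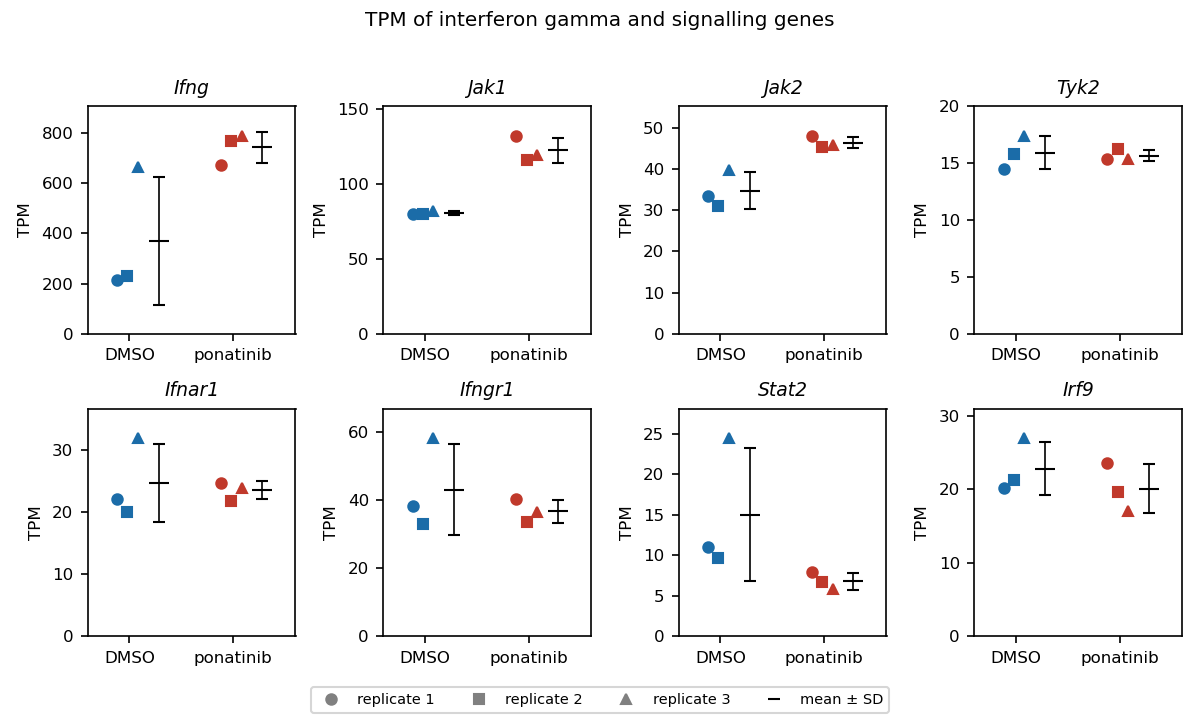
TPM (y axis, linear and from 0) of interferon gamma, receptor, kinase and ISGF3 genes in each library, with mean ± SD, n = 3. Jak1 and Jak2 are higher in every ponatinib library than in any DMSO library, Stat2 is lower, and for Ifng DMSO replicate 3 lies at 665 TPM beside ponatinib replicate 1 at 671 TPM.

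Other genes of the pathway, from lists of names, are given as counts with a few examples. For comparison, 23.9% of all genes tested were called higher and 9.54% lower. Of 8 regulators that restrain signalling, 1 rose and 1 fell: Ptpn6, encoding the phosphatase SHP-1, fell from 176 ± 1.59 to 147 ± 2.80 TPM (-0.25, adjusted p = 0.00401), and Ptpn11, encoding SHP-2, rose from 33.7 ± 2.70 to 39.7 ± 0.974 TPM (0.23, adjusted p = 0.0380). Ptpn11 was not called with medians of ratios (0.0811), no filter (0.0531) or quantile normalization (0.0537), nor with DMSO replicate 1 or 2 (0.102 and 0.105) or ponatinib replicate 1, 2 or 3 (0.0706, 0.122 and 0.115) left out. Pias1 and Pias4 were not called (0.20 and 0.16, adjusted p of 0.0745 and 0.101; Pias4 0.0314 without DMSO replicate 3). Of 12 tested sensors, adaptors and factors upstream of type I interferon, 4 rose and 3 fell, or 2 and 2 without ponatinib replicate 3 and 3 and 1 without ponatinib replicate 2. Ikbke and Tbk1, kinases that activate IRF3, rose from 9.26 ± 0.775 to 18.2 ± 1.84 TPM and from 11.6 ± 1.34 to 16.6 ± 1.97 TPM (0.90 and 0.48, adjusted p of 7.27e-04 and 0.0152). The adaptors Traf3 and Myd88 rose by smaller amounts (0.57 and 0.26, adjusted p of 0.00625 and 0.0157). Calls were lost for Tbk1 without ponatinib replicates 1 and 3 (0.0518 and 0.0625), for Myd88 without DMSO replicate 1 and ponatinib replicates 2 and 3 (0.0588, 0.0581 and 0.0662), and for Traf3 with transcript rows added (0.34, adjusted p = 0.0733).

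Of 41 other tested interferon-stimulated genes, 3 rose (7.32%) and 9 fell (22.0%), with a median of -0.26. Of all genes tested 23.9% rose and 9.54% fell. Without DMSO replicate 3, 11 rose (26.8%) and 15 fell (36.6%), with a median of -0.03. The shares of all genes were then 35.3% and 10.1%. The number that fell was 15 with medians of ratios or quantile normalization, 5 without ponatinib replicate 1 or 3 and 6 without ponatinib replicate 2. Rnf213, a large ubiquitin ligase gene, fell from 22.6, 21.3 and 36.1 TPM to 9.36, 7.56 and 7.95 TPM (-1.54, adjusted p = 0.00118), and Pml, the organiser of nuclear bodies, from 62.5, 63.5 and 77.7 TPM to 39.3, 36.8 and 33.9 TPM (-0.87, adjusted p = 8.31e-04). Slfn2, known for T cell quiescence, rose from 277 ± 9.44 to 398 ± 13.1 TPM and Ly6e, a surface protein gene, from 130.0 ± 6.10 to 194 ± 22.5 TPM (0.52 and 0.57, adjusted p of 4.79e-04 and 0.00222). Of the Ly6e total 58.2% lay in separate transcript rows. Calls in both directions thus occurred outside the 43 genes as well, the higher ones at a smaller share than among all genes. Of 12 other tested genes known from the interferon gamma response, 5 rose (41.7%) and 1 fell (8.33%), with a median of 0.23. With medians of ratios 2 rose, where 14.7% of all genes did. The number that rose was 7 of 12 without DMSO replicate 3, where 35.3% of all genes rose. It was 3 of 12 without DMSO replicate 2 or ponatinib replicate 2, where at most 17.6% of all genes rose. It was 2 of 12 (16.7%) without DMSO replicate 1, ponatinib replicate 1 or ponatinib replicate 3. In those last fits 13.4% to 17.3% of all genes rose, so the share of these genes was then like that of all genes. Cd274, encoding PD-L1, rose from 10.8 ± 2.02 to 18.7 ± 2.01 TPM (0.75, adjusted p = 0.00487), and Casp1, encoding an inflammatory caspase, from 3.06 ± 0.625 to 6.41 ± 0.686 TPM (0.88, adjusted p = 0.00313). Gbp4 rose from 10.9 ± 3.66 to 18.2 ± 0.693 TPM (0.74, adjusted p = 0.0255), a call lost with medians of ratios (0.0667), quantile normalization (0.0803) and no filter (0.0633), and without DMSO replicate 1 (0.0598) and ponatinib replicates 1, 2 and 3 (0.0847, 0.0689 and 0.0744). Of the Gbp4 total 80.0% lay in separate transcript rows, so the TPM given are only a part of the gene. Gbp4 overlaps Gbp8 and Gbp9 on the same strand of chromosome 5, so reads of these genes may be hard to divide. Ifi30, a lysosomal thiol reductase gene, fell from 69.3 ± 6.34 to 49.4 ± 1.67 TPM (-0.48, adjusted p = 0.00280).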

How the data were processed

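The authors deposited 1 table of 43072 rows in which each of the 6 libraries is a column adding up to 1000000. These deposited values were read as TPM, although the table is named for normalized counts. Fastp 0.19.5, Salmon 1.5.1, DESeq2 1.22.1 and GRCm38 are named, per the submitters' processing notes, without their roles; filters are not given in the sources used here. Gene rows (22095, with 92.9% to 93.2% of TPM) were used, named by GENCODE mouse release 21; adding the 20977 transcript rows to their genes was an alternative. TPM keep no depth, so the depth is unknown and the number of libraries limits the precision.

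Values were taken as log2(TPM + 1), which understates changes of low genes. Genes averaging 1 TPM or more were compared between treatments with limma 3.58.1 (R 4.3.3; lmFit, eBayes with trend), two-sided, without the replicate number, because same-numbered libraries did not deviate together. The fit was run on simulated data with independent noise for each gene and library. Such data hold no library that deviates in many genes together, so they do not bear on the deviation of DMSO replicate 3. Alternatives were other scalings (medians of ratios, quantile), a pseudocount of 0.1, a minimum of 10 TPM or none, robust empirical Bayes, the replicate block, Tgtp1 and Tgtp2 added together, and each library left out; medians of ratios without DMSO replicate 3 was added after seeing the data. Words of 31 bases from GENCODE transcripts showed near copies. The members and lists were chosen with earlier results of these data known. Values are given for members and, of the pathway lists, for ligands, receptors and kinases and up to 4 genes with the smallest p of each other list. No set test was run. A result that concerns a withheld item is not reported here.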

Additional observations from a re-analysis of the deposited data

How the results depend on the processing

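All alternatives kept the first group's median log2 fold change below 0 and the second group's above 0. With medians of ratios, 1477 genes were higher and 1571 lower in place of 2398 and 958, and 5 members of the second group rose and 2 fell (median 0.21); with quantile normalization, 1446 genes were lower and 5 members of the second group rose (median 0.23). With medians of ratios and DMSO replicate 3 left out, chosen after seeing the data, 1870 genes were lower, 3 members of the first group rose and 2 of the second fell (median 0.22). With no filter 9 members of the first group fell, where 6.23% of all genes fell. With transcript rows added, and with the replicate block, 0 members of the second group fell in place of 1. With 1 library left out, 1345 to 3534 genes were higher and 626 to 1011 lower; in the first group 0 to 6 members rose and 8 to 17 fell (medians -1.12 to -0.54), and in the second 5 to 10 rose and 0 to 1 fell (0.22 to 0.36). 

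The replicate number gave no pairing: deviations of same-numbered libraries correlated at -0.0349, 0.0563 and 0.00516 across genes, and the block left 14 lower genes in the first group and 9 higher in the second. Directions of uncalled genes turned as follows. With medians of ratios, Rtp4 was at -0.09, Zbp1 at -0.08, Irgm1 at -0.06, Igtp at -0.03 and Ifngr2 at -0.0036; with quantile normalization, Rtp4 was at -0.09, Zbp1 at -0.07 and Irgm1 at -0.05. With medians of ratios and DMSO replicate 3 left out, Isg20 was at 0.22, Ifit2 at 0.14, Ifnar1 at 0.02, Irgm1 at -0.02 and Igtp at -0.03. With transcript rows added, Ifit2 was at 0.02 and Oasl2 at -0.40. With 1 library left out, log2 fold changes ranged from -0.57 to 0.35 for Isg20, -0.22 to 0.26 for Ifit2, -0.20 to 0.76 for Oasl2, -0.28 to 0.46 for Rtp4, -0.22 to 0.36 for Zbp1, -0.33 to 0.11 for Ifih1, -0.09 to 0.11 for Irgm1, -0.00055 to 0.12 for Igtp, -0.17 to 0.15 for Ifnar1, -0.35 to 0.04 for Ifngr1, -0.07 to 0.23 for Ifngr2 and -0.08 to 0.05 for Tyk2. The cause was not tested. With 3 libraries a group and no depth in TPM, small differences of low genes could not be resolved.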
